A study of Homo sapiens with 12 samples.

Results

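The genes described here are the mitotic kinases, kinesins, spindle checkpoint components and their partners, 60 genes chosen by symbol for their roles in cell division. A gene was taken up where the arrays held a probe set annotated to that gene alone, and the brightest such probe set by mean over the 12 arrays was used. This left 51 of the 60 genes, among 14232 genes measured in the same way. KIF20A, KIF23, KIF4A, KIFC1, BUB1B, RACGAP1, NCAPD2, NCAPG and SMC4 had no such probe set and are not analysed here, and SGOL1 appears under its current symbol SGO1.

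CCRF-CEM is an established human T-lymphoblast line derived from an acute lymphoblastic leukaemia. RNA was profiled on Affymetrix whole-transcript arrays in 4 groups of 3 cultures, labelled as biological replicates 1, 2 and 3: cells given AB61 at 250 nM, cells given tubercidin at 550 nM, cells given actinomycin D at 1 nM, and cells left untreated. Each exposure lasted 3 h, at a concentration stated as 5 times the IC50. All groups come from this single line, each compound was used at 1 dose and 1 time, and the labels name no vehicle control. Tubercidin is 7-deazaadenosine, an adenosine analogue. AB61 is, per the series title, the same nucleoside carrying a thienyl group on its deazapurine base. Actinomycin D binds DNA and blocks RNA polymerases.

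Levels are the authors' log2 values from robust multi-array averaging (RMA), so a difference of 1 is a doubling, and a loss of RNA common to most genes would not be seen. In these bulk cultures fewer cells in mitosis and less RNA per mitotic cell cannot be told apart. Of the 14 T-lineage markers, CD3D averaged 12.40, CD3E 11.54 and CD7 10.19 in untreated cells, while CD1B and RAG1 were at 3.31 and 5.56. The 4 B-lineage markers lay between 5.84 and 7.46 and the 4 myeloid markers between 3.35 and 6.0, without detection calls to say which are expressed. Arrays correlated with each other at 0.983 to 0.996 over all genes. The interquartile range of levels was narrowest on the second AB61 array, at 2.46, and widest on the third, at 2.88, with the other 10 arrays between 2.64 and 2.87. Every member's mean over the arrays lay above 5.30, the 25th percentile used elsewhere as a limit for dim genes.

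Cells entering mitosis activate CDK1 with B-type cyclins, and the PLK and Aurora kinases then drive spindle assembly and chromosome condensation. The spindle checkpoint holds the anaphase-promoting complex inactive until every kinetochore is attached, after which CDC20 directs securin and cyclin B to destruction. Most of these genes are transcribed late in the cell cycle, through CHR and CCAAT elements in their promoters bound by the MuvB complex with MYBL2 and FOXM1, and by NF-Y.

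These letters were frequent in the members' promoters. RefSeq promoter windows (build GRCh38.p14, 250 bases before to 50 after the start) were matched for 44 of the 51 members, giving 58 windows, and AURKA, BIRC5, BUB3, FOXM1, TPX2, TTK and UBE2C had no match. The CHR letters, TTTGAA or TTTAAA read on both strands, were present in 40 of the 58 windows (69.0%), against 19.6% of the 16426 windows of all measured genes. TTTGAA alone was found in 33 member windows (56.9%), against 12.2% of all. A CCAAT box, CCAAT or its reverse ATTGG, was found in 41 windows (70.7%), against 34.7%. Both kinds occurred together in 30 windows (51.7%), against 7.81%. The CHR letters began between bases -60 and 20 from the start in 26 windows (44.8%), against 5.32%. A match of letters is a description and not a bound site. Of the 4 promoters printed here, PLK1 is shown because its levels separated the treated from the untreated arrays, CCNB2 and KIF2C because they followed the other members closely from culture to culture, and ESPL1 because it did not. Each runs 5′ to 3′ on the gene's strand, from 250 bases before the start to 30 after it, with the CHR letters and CCAAT boxes in capitals. The windows are chr16:23678639-23678918 for PLK1, chr15:59104896-59105175 for CCNB2, chr1:44739587-44739866 for KIF2C and chr12:53268049-53268328 for ESPL1, all on the plus strand.
PLK1: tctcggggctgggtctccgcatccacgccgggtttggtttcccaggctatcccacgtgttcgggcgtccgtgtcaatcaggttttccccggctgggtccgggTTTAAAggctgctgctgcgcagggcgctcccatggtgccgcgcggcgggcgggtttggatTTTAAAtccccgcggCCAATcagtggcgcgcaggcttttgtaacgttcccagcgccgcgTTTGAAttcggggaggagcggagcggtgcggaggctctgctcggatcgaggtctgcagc
CCNB2: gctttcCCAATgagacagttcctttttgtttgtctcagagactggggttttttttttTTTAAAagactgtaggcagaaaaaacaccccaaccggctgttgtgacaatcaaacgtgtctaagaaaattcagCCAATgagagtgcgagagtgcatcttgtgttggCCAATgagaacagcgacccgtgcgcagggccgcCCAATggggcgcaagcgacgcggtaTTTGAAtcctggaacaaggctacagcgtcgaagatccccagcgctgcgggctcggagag
KIF2C: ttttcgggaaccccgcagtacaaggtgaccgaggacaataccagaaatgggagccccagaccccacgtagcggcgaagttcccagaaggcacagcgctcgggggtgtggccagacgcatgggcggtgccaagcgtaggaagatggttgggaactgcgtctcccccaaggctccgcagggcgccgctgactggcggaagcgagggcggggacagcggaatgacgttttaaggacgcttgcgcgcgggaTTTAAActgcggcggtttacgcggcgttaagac
ESPL1: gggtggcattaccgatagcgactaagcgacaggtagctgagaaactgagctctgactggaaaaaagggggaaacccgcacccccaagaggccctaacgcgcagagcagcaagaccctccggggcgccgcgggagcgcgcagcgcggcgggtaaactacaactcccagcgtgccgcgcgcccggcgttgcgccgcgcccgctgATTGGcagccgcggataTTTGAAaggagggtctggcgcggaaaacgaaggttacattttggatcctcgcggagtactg
TTTGAA began at base -29 in both PLK1 and CCNB2 and at base -31 in ESPL1, and TTTAAA began at base -3 in KIF2C. PLK1 had 1 CCAAT box, CCNB2 had 4, ESPL1 had 1 on the reverse strand, and the letters CCAAT were not in the KIF2C window.

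After 3 h of exposure no member passed the test against untreated cells. PLK1 and BIRC5, both regulators of chromosome segregation, stood above untreated levels on every treated array, by 0.32 to 0.48 in the fitted group means, but these differences missed the threshold. Of all 14232 genes, 375 had every treated array above every untreated one. The other members lay within -0.49 to 0.40 of their untreated means. In limma's moderated test with Benjamini-Hochberg adjustment over 14232 genes, 0 of 51 members had an adjusted p under 0.05 after AB61, where 0.169% of all genes did. The count was also 0 of 51 after tubercidin, against 0.0913% of all genes, and 0 of 51 after actinomycin D, against 0.119%. With an unadjusted p under 0.05 there were 3 members after AB61 (5.88%, against 12.1% of all genes), 3 after tubercidin (5.88%, against 8.80%) and 4 after actinomycin D (7.84%, against 9.39%). In a test for any difference among the 4 groups 0 members passed, against 0.0843% of all genes, and 2 members, PLK1 and BIRC5, had an unadjusted p under 0.05 (3.92%, against 7.33%). With arrays weighted by their variability, in a fit that stopped before convergence, 12 members (23.5%, against 20.1% of all genes) passed after AB61, 0 (against 0.506%) after tubercidin and 5 (9.80%, against 11.73%) after actinomycin D. With the replicate number as a block 0 members passed, against 1.36%, 0.815% and 0.913% of all genes after AB61, tubercidin and actinomycin D. In the blocked fit 7 members had an unadjusted p under 0.05 after AB61 (13.73%, against 16.5% of all genes), 8 after tubercidin (15.7%, against 12.7%) and 7 after actinomycin D (13.73%, against 13.2%). Without the block each of these shares was below that of all genes. In the authors' deposited tables, which give unadjusted p-values, 3 members had a p under 0.05 after AB61, 2 after tubercidin and 4 after actinomycin D. The share of all probe sets under 0.05 in those tables was not counted, so these member counts have no background beside them.

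The median member difference was -0.03 after AB61, where the median of all genes was 0.04. It was 0.11 after tubercidin, against -0.02 for all genes, and 0.06 after actinomycin D, against 0.00. The AB61 median turned to 0.06 without the first or the second AB61 array and to 0.01 without the third untreated array, and it was -0.14 without the third AB61 array. The actinomycin D median was -0.02 without the third actinomycin D array, and the tubercidin median stayed above 0 whichever single array was left out. Members fitted above their untreated mean numbered 23 of 51 after AB61 (59.6% of all genes), 35 after tubercidin (43.0% of all genes) and 32 after actinomycin D (50.8% of all genes). When arrays were instead centred on ribosomal protein genes these counts became 39, 50 and 38, and the member medians 0.11, 0.25 and 0.12. That scaling moved the medians of all genes to 0.18, 0.12 and 0.06 in the same order. With a repeated quantile normalization the AB61 median was 0.03. Differences lay above 0 after all 3 compounds for 21 members and below 0 for 13, and the 3 comparisons share the untreated arrays. The half-width of the 95% interval had a median of 0.37 over the members and ranged between 0.19 and 0.75, which bounds the changes that 3 cultures a group could resolve.

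**Figure D1:**
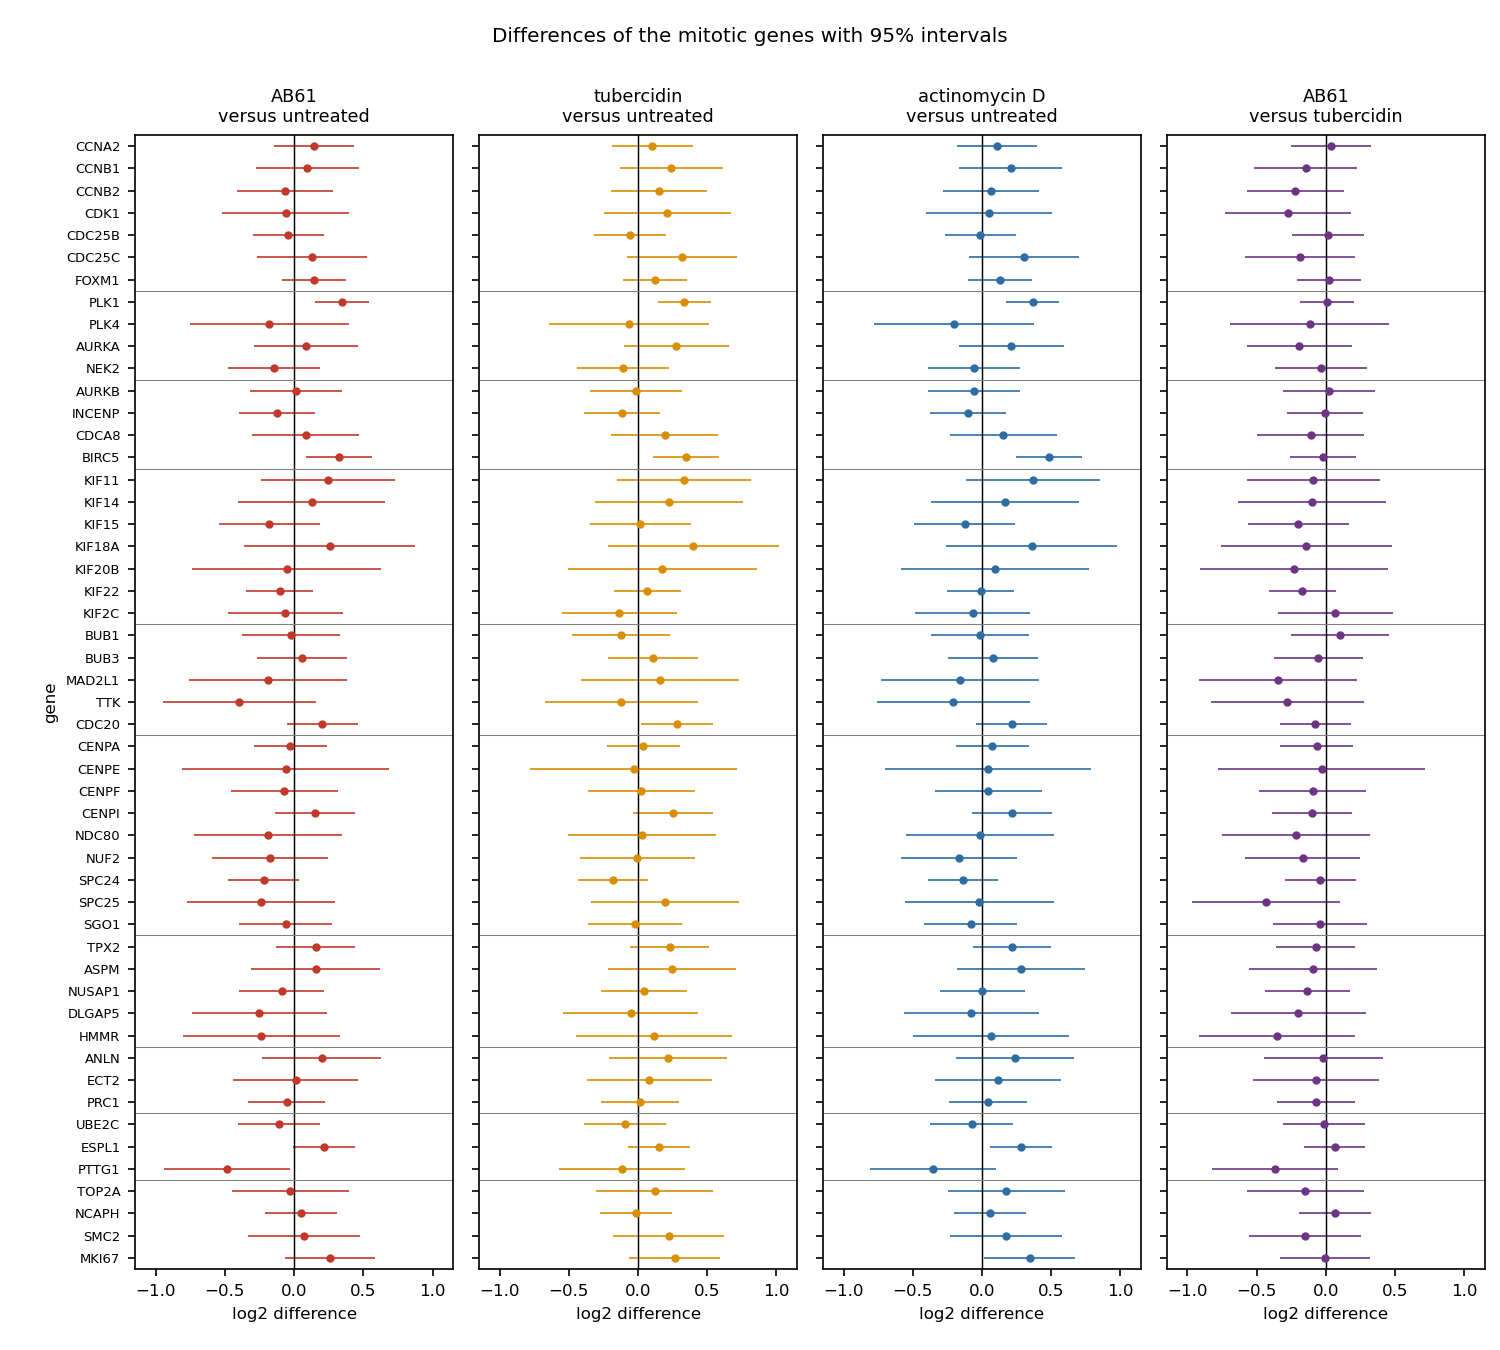
Log2 difference of each of the 51 genes (points, rows ordered by role) with its 95% interval from limma (bars), for AB61, tubercidin and actinomycin D versus untreated and for AB61 versus tubercidin. Most intervals cross 0; those of PLK1 and BIRC5 lie above 0 in the first 3 panels, without passing the adjusted threshold.

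PLK1, the Polo-like kinase that acts at centrosomes, kinetochores and the cytokinetic furrow, was measured by probe set 3653072. Its log2 levels were 11.31, 11.35 and 11.29 in AB61 cultures, 11.20, 11.36 and 11.36 in tubercidin cultures, and 11.40, 11.30 and 11.31 in actinomycin D cultures, against 11.04, 10.97 and 10.90 in untreated cultures. All 9 treated arrays lay above all 3 untreated arrays. The difference was 0.34 ± 0.09 (SE) after AB61 (adjusted p = 0.146 in limma), 0.34 ± 0.09 after tubercidin (adjusted p = 0.202) and 0.37 ± 0.09 after actinomycin D (adjusted p = 0.169), about 1.26 to 1.29 times the untreated level. Within replicate numbers 1, 2 and 3 the AB61 array exceeded the untreated array of the same number by 0.27, 0.38 and 0.39.

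BIRC5, which encodes survivin, the passenger-complex subunit that brings Aurora B to centromeres and is also an inhibitor-of-apoptosis family member, also separated treated from untreated arrays. Its levels were 9.17, 9.03 and 9.20 after AB61, 9.03, 9.15 and 9.28 after tubercidin, and 9.18, 9.27 and 9.43 after actinomycin D, against 8.95, 8.74 and 8.74 in untreated cells (log2, probe set 3736290). Again no treated array overlapped the untreated ones. The difference was 0.32 ± 0.11 (SE) after AB61 (adjusted p = 0.254 in limma), 0.35 ± 0.11 after tubercidin (adjusted p = 0.287) and 0.48 ± 0.11 after actinomycin D (adjusted p = 0.133), which is 1.4 times the untreated level. A second and dimmer BIRC5 probe set had smaller differences, of 0.09 after AB61, 0.10 after tubercidin and 0.10 after actinomycin D, and its AB61 arrays, between 6.09 and 6.72, overlapped the untreated ones, between 6.26 and 6.39. PLK1 and BIRC5 were the 2 members whose 9 treated arrays all lay above the untreated arrays. These 2 of 51 members stand beside 375 of all 14232 measured genes, so such separation was not particular to the members. Another 270 genes lay below, of which 0 were members.

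**Figure D2:**
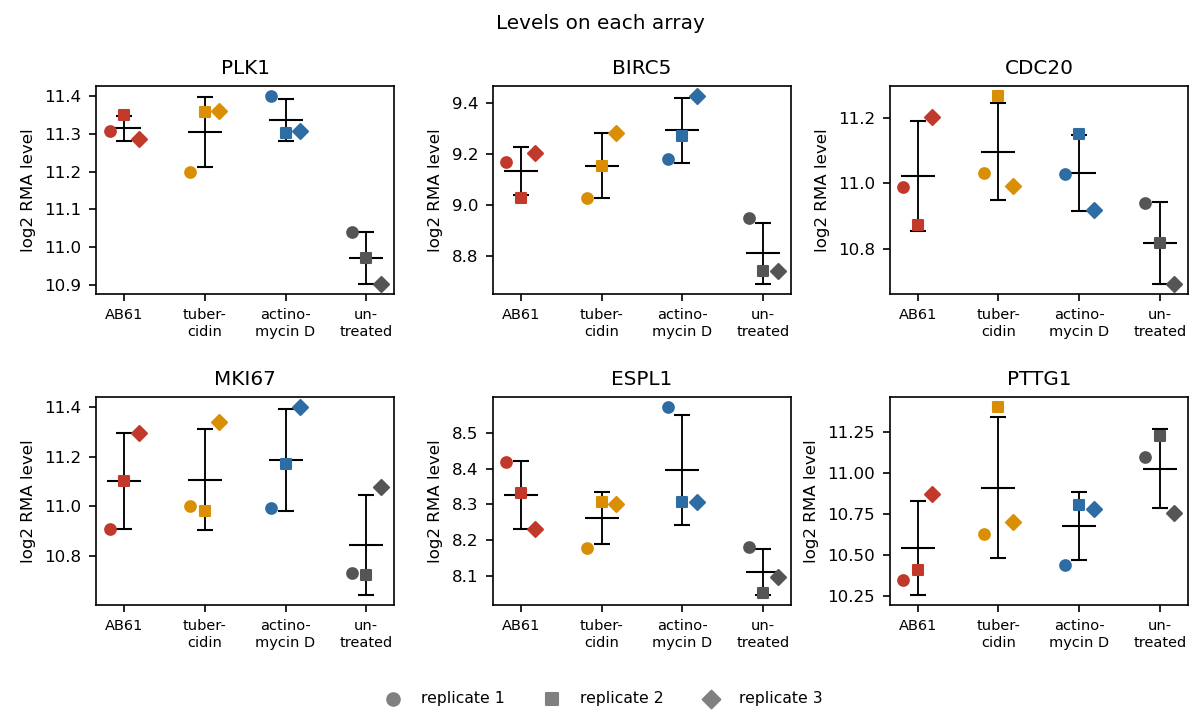
Log2 RMA level of 6 genes on each array (circle, square and diamond for replicates 1, 2 and 3), with the group mean (dash) and SD over 3 arrays (bars), for AB61, tubercidin, actinomycin D and untreated cultures. PLK1 and BIRC5 lie above the untreated arrays in all 9 treated cultures; PTTG1 overlaps with the untreated group after each compound. The vertical axes do not start at 0.

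Counted by arrays that did not overlap, 3 members were higher after AB61, namely PLK1, BIRC5 and ESPL1, a share of the 51 that stands beside 6.42% of all genes. After tubercidin 6 were higher (PLK1, BIRC5, CDC20, CDK1, CENPI and KIF18A, beside 7.43% of all genes), and after actinomycin D 5 were higher (PLK1, BIRC5, ESPL1, CENPI and FOXM1, beside 7.23%). SPC24 was the 1 member lower after AB61 (beside 6.18% of all genes) and the 1 lower after actinomycin D (beside 7.22%). No member was lower on all arrays after tubercidin (beside 6.58%). These few members stand near the background shares in the higher direction.

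Among the genes that trigger mitotic entry, differences after the 3 compounds lay between -0.07 and 0.32 for the 7 measured cyclins, CDK1, CDC25 phosphatases and FOXM1. The kinase subunit CDK1 had levels of 9.72, 10.01 and 10.57 after AB61, 10.23, 10.32 and 10.57 after tubercidin, and 9.87, 10.13 and 10.64 after actinomycin D, against 10.12, 10.20 and 10.16 in untreated cells. Its tubercidin arrays lay above the untreated ones, by 0.21 ± 0.21 (SE) on average (adjusted p = 0.934 in limma), whereas the AB61 and actinomycin D arrays spread to both sides, with differences of -0.06 and 0.05 (adjusted p = 0.928 and 0.999). CCNB1, the cyclin that partners CDK1 at mitotic onset, had 10.19, 9.89 and 10.67 after AB61, 10.31, 10.56 and 10.32 after tubercidin, and 10.25, 10.46 and 10.37 after actinomycin D, against 10.35, 10.15 and 9.97 in untreated cells. The groups overlapped, and its difference was 0.10, 0.24 and 0.21 in the same order of compounds (SE 0.17 each, adjusted p = 0.859, 0.853 and 0.892 in limma).

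CCNB2, the second B-type cyclin, had 11.04, 11.06 and 11.54 after AB61, 11.24, 11.47 and 11.59 after tubercidin, and 11.09, 11.31 and 11.65 after actinomycin D, against 11.26, 11.31 and 11.28 in untreated cells. Untreated cultures lay close together while each treated group spread around or above them, and the mean differences were -0.07, 0.15 and 0.06 (SE 0.16 each, adjusted p = 0.895, 0.934 and 0.999 in limma). CDC25C, a phosphatase that removes inhibitory phosphates from CDK1, had 6.80, 6.45 and 7.25 after AB61, 6.83, 7.01 and 7.23 after tubercidin, and 6.82, 6.97 and 7.24 after actinomycin D, against 6.6, 6.87 and 6.65 in untreated cells. It overlapped the untreated range in every group, with differences of 0.13, 0.32 and 0.30 (SE 0.18 each, adjusted p = 0.820, 0.731 and 0.736 in limma). FOXM1, the forkhead transcription factor of late cell cycle genes, had 10.17, 10.01 and 9.85 after AB61, 9.86, 10.04 and 10.07 after tubercidin, and 10.13, 9.91 and 9.95 after actinomycin D, against 9.86, 9.88 and 9.87 in untreated cells. The actinomycin D arrays cleared the untreated ones by a narrow margin, and the differences were 0.14, 0.12 and 0.13 (SE 0.11 each, adjusted p = 0.642, 0.916 and 0.891 in limma).

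Of the other kinases, AURKA, which matures centrosomes and builds spindle poles, had 8.92, 9.0 and 9.46 after AB61, 9.04, 9.34 and 9.57 after tubercidin, and 8.99, 9.25 and 9.51 after actinomycin D, against 9.09, 9.13 and 8.90 in untreated cells. It overlapped in all groups, with differences of 0.09, 0.28 and 0.21 (SE 0.18 each, adjusted p = 0.874, 0.784 and 0.892 in limma). PLK4, which licenses centriole duplication, and NEK2, a centrosomal kinase, were fitted below untreated after each compound without passing, with the PLK4 difference reaching -0.20 after actinomycin D.

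In the chromosomal passenger complex, which corrects faulty kinetochore attachments, the partners of BIRC5 lay closer to untreated levels. The catalytic subunit AURKB had 10.56, 10.36 and 10.13 after AB61, 10.36, 10.44 and 10.19 after tubercidin, and 10.53, 10.28 and 10.04 after actinomycin D, against 10.45, 10.48 and 10.09 in untreated cells. Every group covered nearly the same range, and the differences were 0.01, -0.01 and -0.06, with a 95% interval of -0.32 to 0.34 after AB61 (SE 0.15 each, adjusted p = 0.984, 0.995 and 0.999 in limma). The scaffold subunit INCENP differed by -0.12, -0.12 and -0.10, and the borealin subunit CDCA8 by 0.08, 0.19 and 0.15.

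Among the 7 kinesins measured, KIF11 (Eg5, which pushes spindle poles apart) had 9.68, 9.88 and 10.35 after AB61, 9.94, 9.81 and 10.43 after tubercidin, and 9.73, 10.04 and 10.51 after actinomycin D, against 9.63, 9.58 and 9.97 in untreated cells. The third array was the brightest in all 4 groups. The differences were 0.24, 0.33 and 0.37 (SE 0.22 each, adjusted p = 0.714, 0.821 and 0.733 in limma). The chromokinesin KIF22 had 9.79, 9.73 and 9.81 after AB61, 9.81, 10.19 and 9.84 after tubercidin, and 9.88, 9.89 and 9.84 after actinomycin D, against 9.93, 9.97 and 9.74 in untreated cells. It overlapped the untreated range after each compound, and the differences were -0.10, 0.07 and -0.01 (SE 0.11 each, adjusted p = 0.756, 0.969 and 0.999 in limma). KIF18A, which limits chromosome oscillation at the metaphase plate, differed by 0.26, 0.40 and 0.36, with intervals that reached 0.62 to either side.

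Of the 6 checkpoint genes listed 5 were measured. CDC20, the anaphase-promoting complex activator that the checkpoint restrains, had 10.99, 10.87 and 11.20 after AB61, 11.03, 11.27 and 10.99 after tubercidin, and 11.03, 11.15 and 10.92 after actinomycin D, against 10.94, 10.82 and 10.69 in untreated cells. Only the tubercidin arrays cleared the untreated ones, and the differences were 0.20, 0.28 and 0.21 (SE 0.12 each, adjusted p = 0.539, 0.509 and 0.681 in limma). BUB1, a kinetochore checkpoint kinase, had 9.86, 9.65 and 10.30 after AB61, 9.94, 9.66 and 9.90 after tubercidin, and 9.91, 9.89 and 10.02 after actinomycin D, against 9.90, 9.75 and 10.23 in untreated cells. Its differences were -0.02, -0.12 and -0.02 (SE 0.16 each, adjusted p = 0.970, 0.957 and 0.999 in limma), inside the untreated SD of 0.25.

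MAD2L1, the inhibitor that sequesters CDC20, had 8.89, 8.0 and 9.36 after AB61, 9.0, 9.36 and 8.93 after tubercidin, and 8.76, 8.72 and 8.87 after actinomycin D, against 9.19, 8.64 and 9.0 in untreated cells. The AB61 cultures alone spanned more than a log2 unit, around a difference of -0.19 ± 0.26 (SE, adjusted p = 0.813 in limma), and the differences after tubercidin and actinomycin D were 0.16 and -0.16 (adjusted p = 0.969 and 0.999). The checkpoint kinase TTK (MPS1) was fitted lower by 0.40 after AB61, 0.12 after tubercidin and 0.21 after actinomycin D, with SDs of 0.63, 0.10 and 0.37 in those groups, against 0.17 in untreated cells.

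At kinetochores and centromeres, 9 genes were measured and 1 of them was fitted above untreated after AB61, 5 after tubercidin and 4 after actinomycin D. SPC24, a subunit of the microtubule-binding NDC80 complex, had 8.68, 8.44 and 8.66 after AB61, 8.45, 8.89 and 8.55 after tubercidin, and 8.69, 8.65 and 8.68 after actinomycin D, against 8.88, 8.77 and 8.79 in untreated cells. Both the AB61 and the actinomycin D arrays lay below the untreated ones, by 0.22 ± 0.12 and 0.14 ± 0.12 (SE, adjusted p = 0.495 and 0.899 in limma), while 1 tubercidin array lay above them, for a difference of -0.18 (adjusted p = 0.798). Its complex partner SPC25 had 8.31, 8.06 and 9.20 after AB61, 8.83, 9.05 and 8.99 after tubercidin, and 8.45, 8.77 and 9.01 after actinomycin D, against 8.93, 8.92 and 8.43 in untreated cells. The AB61 arrays lay on both sides of the untreated ones, and the differences were -0.24, 0.20 and -0.02 (SE 0.25 each, adjusted p = 0.747, 0.954 and 0.999 in limma). CENPI, a constitutive centromere protein, had 7.84, 7.97 and 8.28 after AB61, 8.08, 7.97 and 8.34 after tubercidin, and 7.97, 8.06 and 8.26 after actinomycin D, against 7.88, 7.85 and 7.92 in untreated cells. Its tubercidin and actinomycin D arrays cleared the untreated ones by 0.25 ± 0.13 and 0.22 ± 0.13 on average (SE, adjusted p = 0.681 and 0.742 in limma), and the AB61 difference was 0.15 (adjusted p = 0.702).

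The spindle proteins TPX2, ASPM, NUSAP1, DLGAP5 and HMMR, which bind and organise microtubules, differed by -0.25 to 0.28 over the 3 compounds, and the cytokinesis genes ANLN, ECT2 and PRC1 by -0.06 to 0.24. None of these 8 genes separated a treated group from the untreated one.

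The inhibitor and the protease of sister chromatid release had fitted differences of opposite sign. PTTG1 (securin, the inhibitor of separase) had 10.34, 10.41 and 10.88 after AB61, 10.63, 11.41 and 10.70 after tubercidin, and 10.44, 10.81 and 10.78 after actinomycin D, against 11.10, 11.23 and 10.76 in untreated cells. The first 2 AB61 arrays lay below every untreated array and the third within their range, for a difference of -0.49 ± 0.21 (SE, adjusted p = 0.383 in limma), and the differences after tubercidin and actinomycin D were -0.12 and -0.35 (adjusted p = 0.972 and 0.721). ESPL1 (separase, the protease that cleaves cohesin) had 8.42, 8.33 and 8.23 after AB61, 8.18, 8.31 and 8.30 after tubercidin, and 8.57, 8.31 and 8.31 after actinomycin D, against 8.18, 8.05 and 8.10 in untreated cells. The AB61 and actinomycin D arrays cleared the untreated ones, by 0.22 ± 0.10 and 0.28 ± 0.10 (SE, adjusted p = 0.434 and 0.377 in limma), and the tubercidin difference was 0.15 (adjusted p = 0.831). UBE2C, the ubiquitin-conjugating enzyme of the anaphase-promoting complex, was fitted below untreated after each compound by 0.11 or less.

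Of the chromosome structure genes, MKI67 (Ki-67, a coat protein of mitotic chromosomes and a proliferation marker) had 10.91, 11.10 and 11.30 after AB61, 11.001, 10.98 and 11.34 after tubercidin, and 10.99, 11.17 and 11.40 after actinomycin D, against 10.73, 10.72 and 11.08 in untreated cells. Each treated group overlapped the third untreated array, and the differences were 0.26, 0.26 and 0.34 (SE 0.15 each, adjusted p = 0.537, 0.723 and 0.496 in limma). TOP2A, the topoisomerase that untangles sister DNA, had 10.65, 11.01 and 11.27 after AB61, 10.95, 11.01 and 11.42 after tubercidin, and 10.81, 11.19 and 11.54 after actinomycin D, against 10.92, 10.96 and 11.13 in untreated cells. All groups overlapped, with differences of -0.03, 0.12 and 0.18 (SE 0.19 each, adjusted p = 0.965, 0.966 and 0.976 in limma).

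AB61 and tubercidin, which share the deazaadenosine core and differ by the thienyl group, gave no difference past the threshold in any member at these doses, which match as multiples of the IC50 and not in concentration. Of the 51 members 0 passed in limma, where 0.00% of all genes did, and 0 had an unadjusted p under 0.05, against 5.07% of all genes. No member's AB61 arrays all lay above the tubercidin arrays, beside 3.75% of all genes. The median member difference, AB61 minus tubercidin, was -0.09, where all genes had a median of 0.04, and 9 of 51 members were fitted above 0, against 58.9% of all genes. This lean was not steady between cultures: within replicate numbers 1, 2 and 3 the members above 0 numbered 13, 6 and 33. Without the third AB61 array the median was -0.28, and it was -0.011 without the first and -0.005 without the second. The following genes were fitted below 0, and their intervals crossed 0. All but MAD2L1 were picked by smallest p in this same contrast. For SPC25 the difference was -0.43, with a 95% interval of -0.97 to 0.10, for PTTG1 -0.37 (-0.83 to 0.09), for MAD2L1 -0.35 (-0.92 to 0.22), for KIF22 -0.17 (-0.41 to 0.07) and for CCNB2 -0.22 (-0.57 to 0.13). The adjusted p in limma was 0.793 for each of these 5 genes. KIF22 was the 1 member whose AB61 arrays all lay below the tubercidin arrays, beside 2.28% of all genes. For PLK1 the interval was narrower, at -0.18 to 0.20 around 0.01, and for BIRC5 it was -0.26 to 0.22 around -0.02.

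Against actinomycin D the results were similar. For AB61 versus actinomycin D 0 members passed in limma (0.00% of all genes) and 0 had an unadjusted p under 0.05 (1.83% of all genes). The member median was -0.09, with 6 of 51 fitted above 0, against 56.7% of all genes. It was -0.26 without the third AB61 array and 0.00 without the third actinomycin D array. KIF22 was again the 1 member whose AB61 arrays all lay below, beside 2.03% of all genes, and 0 lay all above, beside 2.38%. For tubercidin versus actinomycin D 0 members passed (0.00% of all genes), 0 had an unadjusted p under 0.05 (1.29% of all genes), and the median was 0.02, with 28 of 51 fitted above 0, against 45.9% of all genes. MAD2L1 was the 1 member whose tubercidin arrays all lay above the actinomycin D arrays, beside 2.19% of all genes, and 0 lay all below, beside 4.36%. In the weighted fit, which gave the third AB61 array a weight of 0.187, 11 members (21.6%, against 16.6% of all genes) passed for AB61 versus tubercidin and 34 (66.7%, against 35.8%) for AB61 versus actinomycin D. With p-values of the 3 pairs of compounds adjusted together over all genes, every member's value rounded to 1.00.

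Members varied together between cultures of the same group. Set against the untreated mean, the median member stood at -0.14, -0.15 and 0.35 on the 3 AB61 arrays, 0.01, 0.11 and 0.19 on the tubercidin arrays, and -0.12, 0.06 and 0.24 on the actinomycin D arrays, against 0.00, -0.03 and 0.04 on the untreated arrays. The third AB61 array was thus high and the other two low, and the treated groups spread more than the untreated one. For 1495 other genes of similar level the median lay between -0.13 and 0.05 on all 12 arrays. On the 3 AB61 arrays it was -0.05, -0.13 and 0.03, so on the second array it was close to the member median. The third array was the brightest of its group for 45 of 51 members after AB61, 34 after tubercidin and 37 after actinomycin D, against 22 in untreated cells. Among all genes those shares were 28.4%, 21.9% and 27.6%, against 23.3% in untreated cells. The third AB61 array also had the widest range of levels over all genes, given above, and the part of this in the member pattern was not tested.

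**Figure D3:**
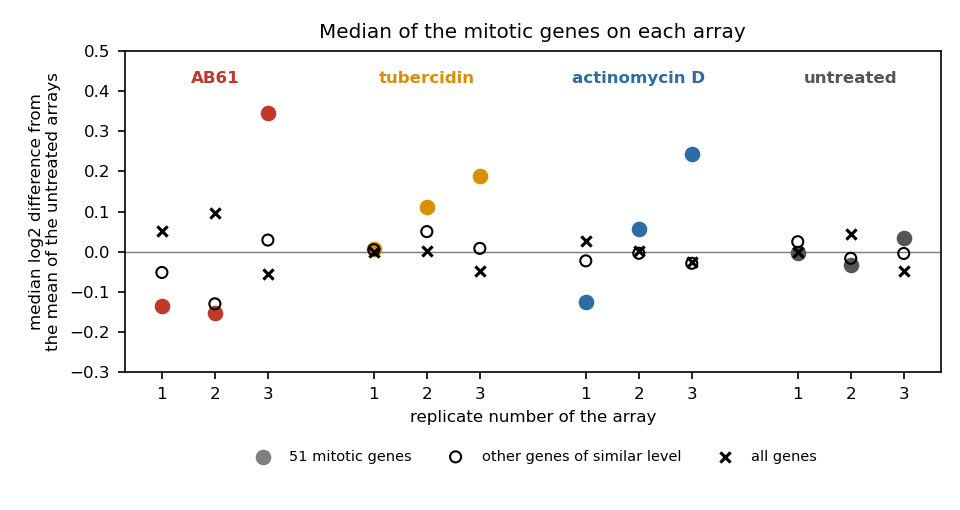
Median log2 difference from the untreated mean on each array, for the 51 mitotic genes (filled circles), 1495 other genes whose level lies between the members' quartiles (open circles) and all 14232 genes (crosses), in AB61, tubercidin, actinomycin D and untreated cultures. The mitotic genes reach 0.35 on the third AB61 array, where the open circle is at 0.03. On the second AB61 array they are at -0.15, close to the open circle at -0.13. Over all arrays the open circles stay between -0.13 and 0.05.

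The SD between replicate cultures had a median over members of 0.31 after AB61, 0.17 after tubercidin and 0.21 after actinomycin D, against 0.14 in untreated cells. Over all genes the median SDs were 0.19, 0.13 and 0.11, against 0.13 in untreated cells. When each group's mean was removed, the mean correlation between 2 members over the 12 arrays was 0.39, and 968 of the 1275 pairs were above 0. The mean was 0.05 over pairs of all genes and 0.05 over pairs of the 1495 genes of similar level. These values are descriptions over arrays normalized together, and a single array weighs on them: the mean for members was 0.27 without the third AB61 array and between 0.35 and 0.42 without any other.

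**Figure D4:**
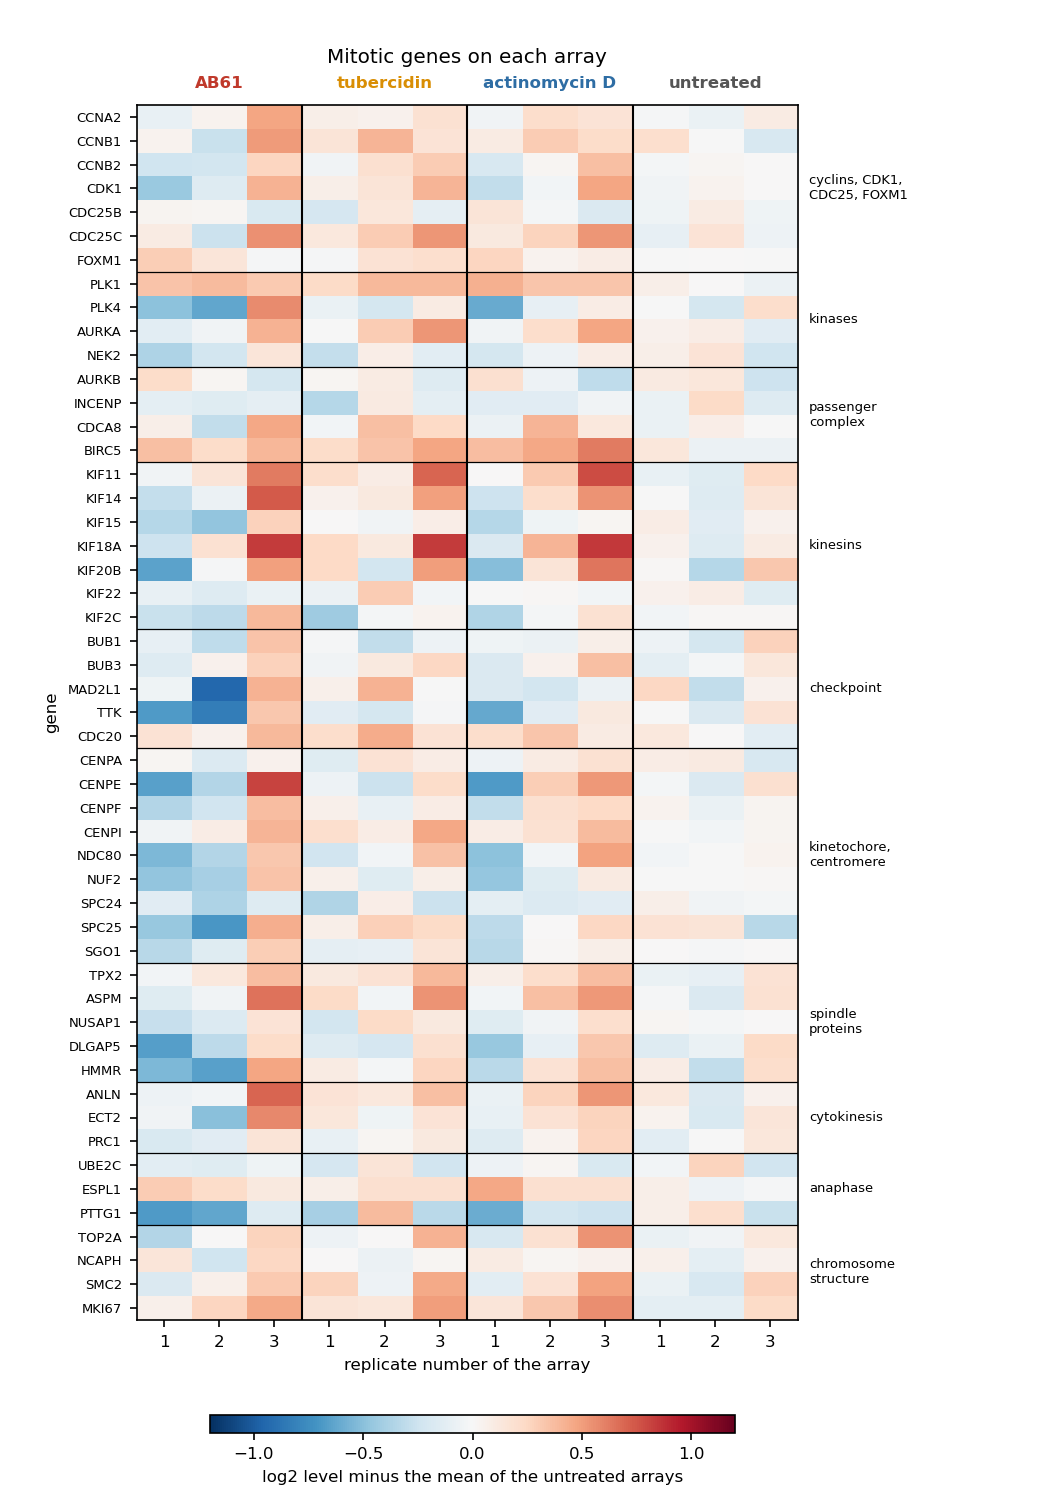
Log2 level of each of the 51 genes (rows, grouped by role) on each of the 12 arrays (columns, by group and replicate number) minus the mean of its untreated arrays. Red is higher and blue lower; the third array of each treated group is red for most rows, and PLK1 and BIRC5 are red on all 9 treated arrays.

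The mean correlation within a role was 0.81 among spindle proteins, 0.77 among cytokinesis genes, 0.60 among kinetochore and centromere genes and 0.55 among kinesins, and lower, at 0.14, among the entry genes and, at 0.09, in the passenger complex. Among the entry genes CCNA2, CCNB1, CCNB2, CDK1 and CDC25C followed the other members at 0.71 to 0.96, while CDC25B and FOXM1 ran opposite. The median correlation of the entry genes with the other members was 0.85, near the 0.86 of kinetochore genes and the 0.85 of kinesins, and no difference between roles was tested. Each member was also set against the mean of the other 50. KIF2C, the microtubule-depolymerising kinesin at centromeres, followed it at a correlation of 0.98, and CCNB2, NDC80 and KIF14, which acts in cytokinesis, at 0.96, 0.93 and 0.94. In all 25 members exceeded 0.8. AURKB (-0.73), CDC25B (-0.55), ESPL1 (-0.52) and FOXM1 (-0.50) had the lowest values, PLK1 (-0.10) and UBE2C (0.00) followed neither way, and BIRC5 stood at 0.68. The 25 close followers had median differences of -0.29, -0.22 and 0.41 on the 3 AB61 arrays, where the 6 members below 0 had 0.26, 0.08 and -0.04. Both sets were picked by their correlation over these same arrays, so opposite profiles follow from the choice and are no separate observation.

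Gene length moved with this pattern. The correlation with the other members rose with gene length at a Spearman rho of 0.46 over the 51 genes, which share the 12 arrays, and the median gene length was 37879 bases for the close followers and 15322 bases for the 6 members below 0. The part of length in the pattern was not tested. The CHR letters, as in the promoters printed above, were present in 21 of the 28 windows of the close followers and in 3 of the 8 windows (37.5%) of the members below 0, among them ESPL1 and PLK1. These shares count windows and not genes, so they do not compare the 2 sets gene by gene. Among the members below 0, FOXM1 and UBE2C had no window, and CDC25B and AURKB had alternative windows. PLK1, ESPL1 and CDC25B had the CHR letters in a window, and AURKB did not.

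**Figure D5:**
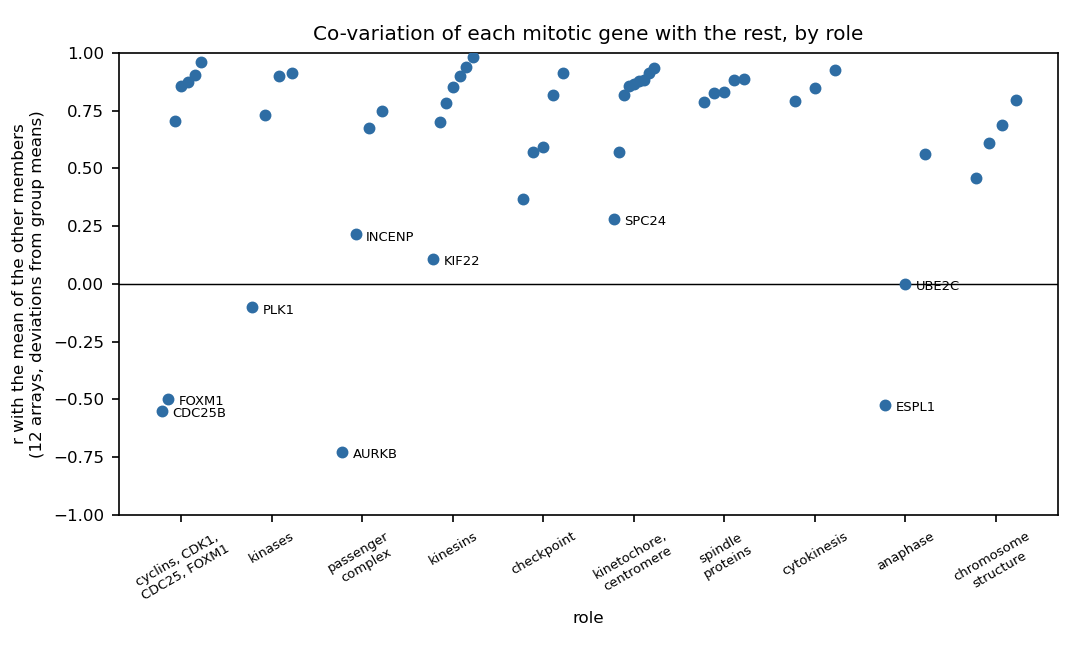
Pearson correlation of each gene with the mean of the other members over 12 arrays, after removing group means, by role; genes under 0.3 are named. Spindle and cytokinesis genes lie between 0.79 and 0.93, whereas AURKB, CDC25B, ESPL1 and FOXM1 lie between -0.73 and -0.50.

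Other genes of the pathway were examined in 7 lists of 98 measured genes in all, covering the anaphase-promoting complex, G1 and S phase cyclins, the MuvB, E2F and NF-Y regulators, centrosome, cohesin, further kinetochore genes and other entry and exit regulators. In none of the lists did a gene pass after AB61, tubercidin or actinomycin D, in limma, where 15 genes (15.3%), 7 genes (7.14%) and 12 genes (12.2%) had an unadjusted p under 0.05. These shares lie near those of all genes, which were 12.1%, 8.80% and 9.39%. HAUS4, a subunit of the augmin complex that nucleates spindle microtubules, had 8.14, 7.90 and 8.01 after AB61, against 8.46, 8.43 and 8.43 in untreated cells. The AB61 arrays lay below, by 0.43 ± 0.10 (SE, adjusted p = 0.113 in limma). GTSE1, a microtubule plus-end protein of G2 and S phase, had 9.27, 9.22 and 9.11 after AB61, against 8.89, 8.93 and 8.94 in untreated cells, higher on all arrays by 0.28 ± 0.09 (SE, adjusted p = 0.230 in limma). Neither shift was particular to AB61. After actinomycin D and tubercidin HAUS4 differed by -0.28 and -0.20 and GTSE1 by 0.28 and 0.21.

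PKMYT1, the kinase that inhibits CDK1, had 8.84, 8.77 and 8.35 after AB61, against 8.31, 8.21 and 8.23 in untreated cells, a difference of 0.40 ± 0.14 (SE, adjusted p = 0.253 in limma). ENSA, whose phosphorylated form inhibits the phosphatase that opposes CDK1, had 6.25, 5.66 and 6.22 after AB61, against 6.85, 6.50 and 6.45 in untreated cells, and CDKN1B (p27, a CDK inhibitor of G1) had 7.31, 7.30 and 7.67, against 7.76, 7.80 and 7.98. Both lay below on every AB61 array, by 0.56 ± 0.19 and 0.42 ± 0.13 (SE, adjusted p = 0.258 and 0.228 in limma). The cohesin genes SMC1A and CDCA5 were fitted lower after AB61 by 0.31 and 0.24, and the kinetochore genes CENPH and MIS12 by 0.49 and 0.57, and cyclin gene CCNE1 by 0.26. CDC16 of the anaphase-promoting complex and the repressor E2F7 were fitted 0.30 and 0.32 above untreated after actinomycin D, and CDC27 and the pocket protein RBL1 0.35 and 0.39 above it after tubercidin, none past the threshold. Each gene is given with the compound of its smallest p. After the other compounds all kept their sign except CCNE1, at 0.04 after actinomycin D. CDC27 was at 0.35, ENSA at -0.43 and MIS12 at -0.47 after actinomycin D, and E2F7 at 0.27 after AB61 and 0.25 after tubercidin. Within these lists the mean correlation between genes over the arrays lay between -0.04 and 0.24, against 0.39 for the members.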

How the data were processed

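RNA was measured on 12 arrays, 3 cultures in each of 4 groups, grouped by the labels' treatment. The authors used RMA, oligo and limma, per the submitters' processing notes, which name no versions. The deposited levels are on the log2 scale, 1 RMA value for each of 22011 probe sets. RMA sets the probe intensities of arrays to a common distribution, but the gene levels used here still differed in spread. Their interquartile range was 2.46 on the second AB61 array and 2.88 on the third. The authors' deposited tables also hold group means, log2 fold changes and an unadjusted p-value per probe set. Gene names came from the supplied annotation: 14432 probe sets carried 1 symbol, 2408 several and 5171 none listed here, and the brightest was taken for the 197 genes with more than 1.

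Differences were fitted with limma 3.58.1 in R 4.3.3 (lmFit and eBayes, no filter) on all 12 arrays without a block, in 6 contrasts and a test over the 4 groups. P-values were adjusted over 14232 genes per contrast, with 0.05 as the threshold and 95% intervals. The fit had 8 residual and 4.91 prior degrees of freedom, and it was tested on simulated data. The number of arrays limits the precision. P-values measure the spread between cultures labelled biological replicates.

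Statistics in full were given for members past the threshold, the 6 with the smallest p in each contrast against untreated, the 4 with the smallest p in AB61 versus tubercidin, and 13 regulators. Of the other pathway lists at most 2 genes each were named, by smallest p. KIF18A, TTK, INCENP, CDCA8, PLK4, NEK2, UBE2C and the members with extreme correlations were named after their values were seen. The members, lists and tests were chosen with earlier results of these data known. Same-numbered AB61 and untreated arrays deviated together, with correlations of 0.16, 0.35 and 0.27, so the numbers were taken to pair them. The labels state no pairing, and arrays of different number were not compared, so this pairing is an assumption. Every other pair of groups had a value under 0.1, though its other values could be higher. Tubercidin and untreated arrays had 0.09, 0.24 and 0.42, and actinomycin D and untreated arrays 0.20, 0.05 and 0.31. AB61 arrays had 0.60, -0.06 and 0.50 with actinomycin D and 0.20, -0.19 and 0.22 with tubercidin. Tubercidin and actinomycin D arrays had 0.23, 0.04 and 0.41. Alternatives were other normalizations, probe set choices, filters, variance models, array weights, a replicate block, 2-group fits and single arrays left out. The mean correlation with single arrays left out was added after seeing the data. Promoter windows came from RefSeq (GRCh38.p14).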

Additional observations from a re-analysis of the deposited data

How the results depend on the processing

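With array weights the counts of members past the threshold became 12 for AB61 versus untreated (4 higher), 5 for actinomycin D versus untreated (all higher), 11 for AB61 versus tubercidin (0 higher), 34 for AB61 versus actinomycin D (2 higher) and 31 for any difference among the 4 groups. The tubercidin versus untreated and tubercidin versus actinomycin D counts were 0. Over all 14232 genes that weighting called 2854, 1669, 2361, 5096 and 5395 in the same order, or 20.1%, 11.73%, 16.6%, 35.8% and 37.9%, so the first 3 member counts lie near the background. Its fit stopped before convergence and gave weights of 12.2 to the second actinomycin D array, 5.14 to the first AB61 array and 0.187 to the third AB61 array. With ribosomal protein centring (31 genes) the tubercidin member median was 0.25, against 0.12 for all genes. Every other alternative, including each single array left out, kept the member counts at 0.

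With the replicate block, which the pairing assumed for AB61 and untreated arrays would call for, 0 members passed in each contrast, while the genes called against untreated numbered 193 after AB61, 116 after tubercidin and 130 after actinomycin D, against 24, 13 and 17 without the block. Members with an unadjusted p under 0.05 numbered 7, 8 and 7. The adjusted p in limma with the block was 0.0856 for PLK1 after AB61, against 0.146 without it. For BIRC5 after actinomycin D it was 0.0586, against 0.133 without the block. The SEs, intervals and adjusted p-values given above for single genes come from the fit without the block. Of 2016 values for 21 named members, 95 had the opposite sign, in none of which was the threshold passed, and the 14 that newly passed did so with array weights. Those 95 fell in 37 of the 84 combinations of gene and contrast. Several alternatives, such as the block, leave the fitted difference as it was, so the share of 2016 values understates how often signs changed. The causes were not tested. Detection calls were not used here, so signal over background is not given.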
